A study of Mus musculus with 16 samples.

Results

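The subject is miR-1246 and miR-1290 (hsa-miR-1246 and hsa-miR-1290 on the array), a pair of human microRNAs (miRNAs) that are often described in vesicles shed by tumour cells. They were taken by name from the miRNA column of 16 arrays and are 2 of the 1205 human miRNAs on the array. Both belonged to the 283 human miRNAs bright enough to be tested, and each had at least 1 probe detected on all 16 arrays. The RNA was extracellular, collected from medium conditioned by HCT116, a line of human colorectal carcinoma cells. The irradiation was with X-rays given at high dose rate, in doses of 0, 2, 6 and 10 Gy, and the cells then stayed in serum-containing RPMI1640 (10% fetal bovine serum) until 72 h. There were 4 independent cultures a dose and 1 array a culture. The design text names 0, 6 and 10 Gy, and the 2 Gy arrays were placed by their own labels. The organism is labelled mouse, but HCT116 is of human origin and the probes are for human miRNAs, as which the values are given. The groups model 1 cell line, so the spread between arrays is that between its cultures.

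Cells release miRNAs in vesicles called exosomes and bound to proteins, and miR-1246 and miR-1290 are among those described as raised in the serum or vesicles of people with several carcinomas. miR-1246 matches part of U2 snRNA, an RNA of the spliceosome, and has been described as a fragment of it. It has also been described as induced by the tumour suppressor p53, which responds to radiation, and as a repressor of the kinase DYRK1A. miR-1290 has been described as impairing the last step of cell division in colon cancer cells. The array cannot tell miR-1246 from a U2 fragment of the same sequence. Fewer vesicles or cells and less of a miRNA per vesicle or cell cannot be told apart in supernatant RNA.

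All levels are log2 of the probe signal after scaling each array by its own 75th percentile, taken over the 518 probes that every array detected. A level therefore says where a miRNA stood relative to the other detected miRNAs of the same array, and a change shared by all of them is removed. Levels of the same miRNA can be compared between arrays, but not levels of different miRNAs. The arrays detected 242 to 358 human miRNAs each. Arrays of 0 and 2 Gy shared 1 slide and those of 6 and 10 Gy another. Dose and slide cannot be told apart in 6 or 10 Gy against 0 Gy and in 6 against 2 Gy, whereas 2 against 0 Gy and 10 against 6 Gy lie within a slide. A synthetic RNA added to follow the labelling reaction was in Agilent's accepted range on 3 of 16 arrays, and the hybridisation spike on 16 of 16. The values of the labelling spike are given beside the results below.

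Each miRNA was read by a pair of probes with 20 spots each, of which 14 to 20 were used. Of the 16 arrays, A_25_P00015142 and A_25_P00015143 of miR-1246 gave a detected signal on 16 each, A_25_P00015107 of miR-1290 on 16, and A_25_P00015106 of miR-1290 on 15. Negative control spots averaged 0.544 to 2.76 intensity units per array. A_25_P00015143 gave 250 to 8299 units and A_25_P00015142 gave 55.6 to 285 units, both far above the negative controls. For miR-1290, A_25_P00015107 gave 37.1 to 505 units. A_25_P00015106 had medians of 21.1 to 28.5 units per dose and stood at the floor of the scale, a log2 level of -4.60, on 3 arrays. The floor raised those arrays to a scaled signal of 0.0412, from 0.0348 at 2 Gy, 0.0410 at 6 Gy and 0.0401 at 10 Gy. Part of any fall of this last probe on those arrays is therefore hidden by the floor.

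miR-1246 was lower in the supernatant after 2 Gy and after 6 Gy than at 0 Gy, and its level after 10 Gy lay between. Without irradiation, its log2 level was 1.75, 1.28, -0.12 and 1.72 in replicates 1 to 4. After 2 Gy the levels were -1.39, -0.03, -1.13 and -1.54, and after 6 Gy they were -1.12, -0.42, 0.61 and -2.34. After 10 Gy they were 0.58, 0.88, 0.24 and -0.46. Replicate 3 stood apart from the other 0 Gy arrays, on the low side, and was the only one of them reached by a 2 Gy array (replicate 2). At 6 Gy the arrays spread most widely, and at 10 Gy every array but replicate 4 lay above every 2 Gy array. The 0 Gy arrays averaged 1.16 ± 0.88, the 2 Gy arrays -1.03 ± 0.68, the 6 Gy arrays -0.82 ± 1.24 and the 10 Gy arrays 0.31 ± 0.58 (SD, n = 4 each).

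miR-1290 followed the same order of doses. Its log2 levels at 0 Gy were -1.56, -2.34, -2.84 and -2.04 in replicates 1 to 4. At 2 Gy they were -3.97, -3.39, -3.80 and -3.999, so that all 4 arrays lay below all 4 arrays of 0 Gy. Of the 283 miRNAs tested, 4.24% had 2 Gy arrays wholly below the 0 Gy arrays. At 6 Gy the levels were -3.21, -3.34, -2.61 and -4.35, and at 10 Gy they were -2.62, -2.44, -2.76 and -3.38. Both of these doses overlapped 0 Gy, whose lowest array was again replicate 3, and 6 and 10 Gy overlapped 0 Gy for miR-1246 as well. Over all miRNAs, 3.53% lay wholly below 0 Gy at 6 Gy and 5.3% at 10 Gy. The share wholly lower was 1.06% for 6 against 2 Gy and 2.47% for 10 against 6 Gy, and neither miRNA was wholly lower there. The 0 Gy arrays averaged -2.19 ± 0.54, the 2 Gy arrays -3.79 ± 0.28, the 6 Gy arrays -3.38 ± 0.72 and the 10 Gy arrays -2.80 ± 0.41 (SD, n = 4 each).

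**Figure D1:**
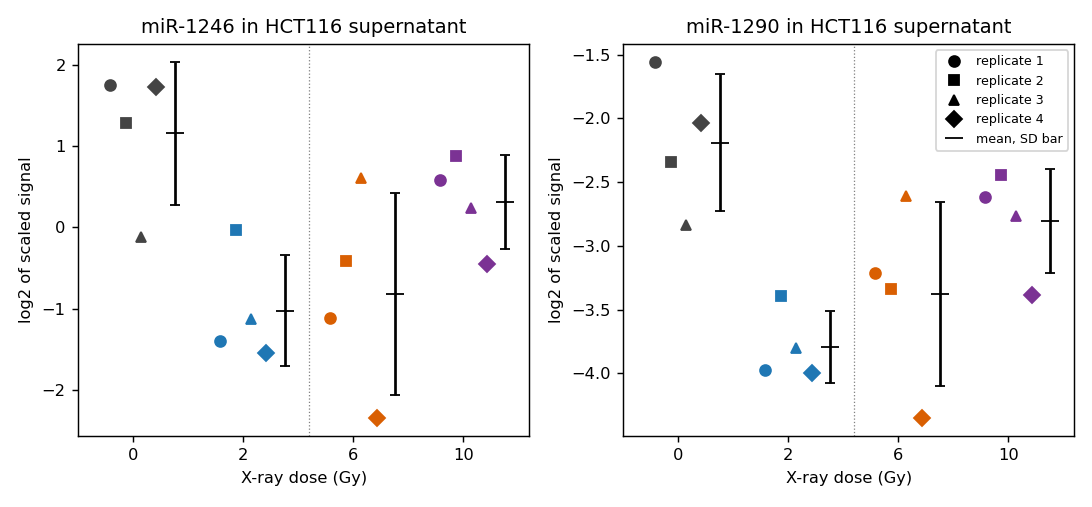
Log2 level of miR-1246 and miR-1290 (y axis) on each array by dose in Gy (x axis), with points for arrays and bars for the mean and SD. The dotted line divides the arrays of slide 1 (0 and 2 Gy) from those of slide 2 (6 and 10 Gy), and for both miRNAs the 0 Gy mean is the highest and the 2 Gy mean the lowest.

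At 2 Gy against 0 Gy both miRNAs fell. miR-1246 was 4.53-fold lower, a log2 change of -2.18 ± 0.58 (SE; 95% interval -3.42 to -0.94; limma with Benjamini-Hochberg adjustment over 283 miRNAs, adjusted p = 0.0283). miR-1290 was 3.03-fold lower, a log2 change of -1.60 ± 0.34 (SE; -2.33 to -0.87; limma adjusted p = 0.0190). Of all 283 miRNAs, 36 (12.7%) passed in this comparison, 19 of them lower (6.71%) and 17 higher (6.01%), and the median change was 0.03. The change of miR-1246 was the 7th most negative and that of miR-1290 the 15th. Fitted on the 8 arrays of slide 1 alone the changes were the same, but the limma adjusted p was 0.0775 for miR-1246 and 0.0505 for miR-1290. With normexp background correction the change of miR-1290 was -0.99 (limma adjusted p = 0.0428), over 1.5 times smaller. Limma's adjusted p for miR-1246 was 0.0980, 0.0653 and 0.0713 without 0 Gy replicate 1, 2 or 4, and 0.0910, 0.0727 and 0.0955 without 2 Gy replicate 1, 3 or 4. For miR-1290 it was 0.0545 without 0 Gy replicate 1, and 0.0664 and 0.0739 without 2 Gy replicate 1 or 4.

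At 6 Gy against 0 Gy both also fell. The log2 change was -1.97 ± 0.58 for miR-1246 (SE; -3.21 to -0.74; limma adjusted p = 0.0407) and -1.19 ± 0.34 for miR-1290 (SE; -1.92 to -0.46; limma adjusted p = 0.0401). Over all miRNAs, 55 of 283 (19.4%) passed, 38 of them lower (13.4%), with a median change of 0.12. Among the 283 changes, that of miR-1246 was the 14th most negative and that of miR-1290 the 37th. Both calls were lost in 10 of the 16 fits that each left out 1 array. Without 0 Gy replicate 1, 2 or 4, limma's adjusted p was 0.114, 0.0903 and 0.0978 for miR-1246, and 0.114, 0.0821 and 0.0895 for miR-1290. Without 6 Gy replicate 1 or 4 it was 0.0748 and 0.0897 for miR-1246, and 0.0676 and 0.0866 for miR-1290. Leaving out 2 Gy replicate 1, 3 or 4, or 10 Gy replicate 1 or 3, which leaves the change itself as it was, gave 0.0502 to 0.0542 for both.

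At 10 Gy against 0 Gy neither miRNA passed. The log2 change was -0.84 ± 0.58 for miR-1246 (SE; -2.08 to 0.40; limma adjusted p = 0.417) and -0.61 ± 0.34 for miR-1290 (SE; -1.34 to 0.12; limma adjusted p = 0.309). Both intervals include 0, and the one for miR-1246 almost reaches the change at 2 Gy, so a p that missed the threshold does not show that the miRNAs stayed at their 0 Gy level. One miRNA of 283 (0.353%) passed in this comparison.

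Between irradiated doses the members were not told apart. At 6 against 2 Gy the log2 difference was 0.21 for miR-1246 (-1.03 to 1.44; limma adjusted p = 0.961) and 0.41 for miR-1290 (-0.32 to 1.14; limma adjusted p = 0.839). At 10 against 6 Gy it was 1.13 for miR-1246 (-0.11 to 2.37; limma adjusted p = 0.326) and 0.58 for miR-1290 (-0.15 to 1.30; limma adjusted p = 0.348). In these 2 comparisons 0 of 283 miRNAs passed in limma, while 14 and 42 had an unadjusted p under 0.05. The moderated F test of any difference among the doses gave adjusted p = 0.0764 for miR-1246 and 0.0547 for miR-1290 in limma, and 0 of 283 miRNAs passed, with 91 at an unadjusted p under 0.05. The order of the means, 0 Gy highest, then 10 Gy, 6 Gy and 2 Gy, therefore holds no pair of neighbours that passed. 10 Gy against 2 Gy was not tested.

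**Figure D2:**
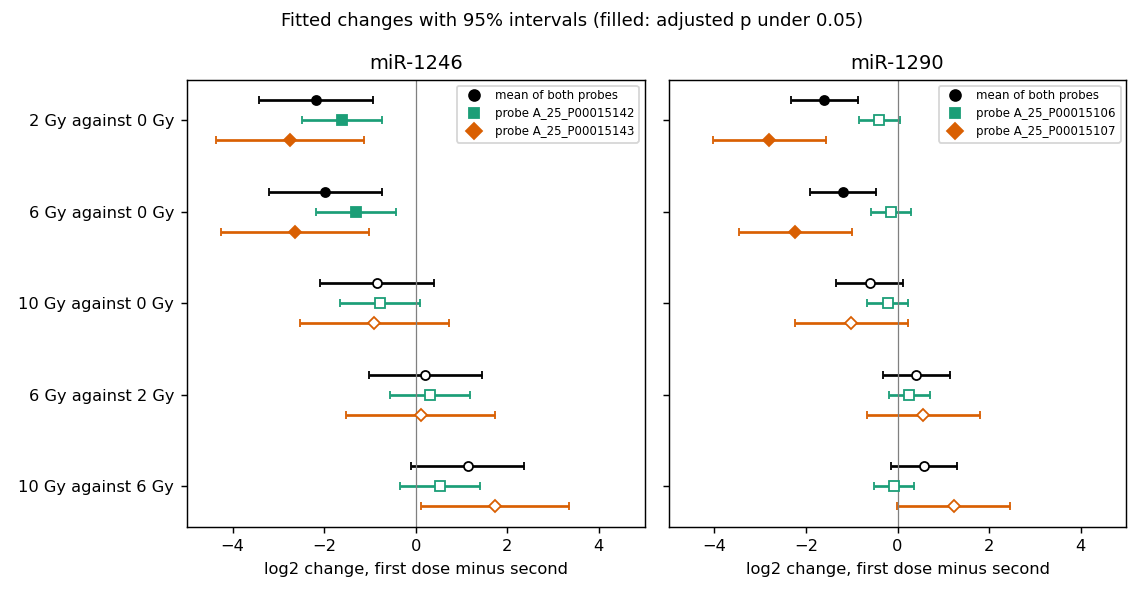
Log2 change with its 95% interval (x axis) in each comparison of doses (y axis) for miR-1246 (left) and miR-1290 (right), as the mean of both probes (circles) and for each probe alone (squares and diamonds), filled where limma's adjusted p was under 0.05. At 2 and 6 Gy against 0 Gy all points but those of A_25_P00015106 of miR-1290 are filled, and in the other comparisons all are open.

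**Figure D3:**
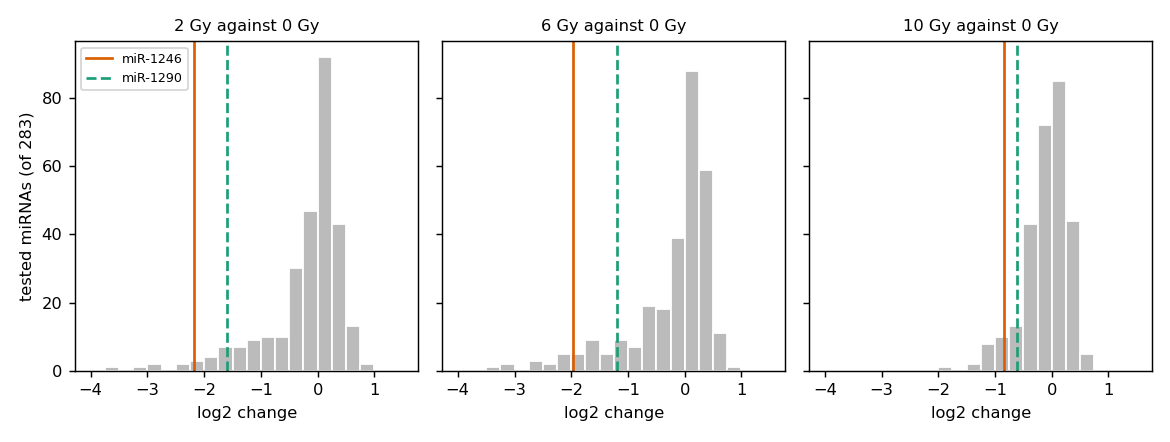
Number of the 283 tested miRNAs (y axis) by log2 change (x axis) against 0 Gy at each dose, with the changes of miR-1246 and miR-1290 marked. miR-1246 lies among the most negative changes at 2, 6 and 10 Gy, at ranks 7, 14 and 17.

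The probes of 1 miRNA moved by different amounts. At 2 Gy against 0 Gy, A_25_P00015143 of miR-1246 changed by -2.75 ± 0.76 (SE; limma over 592 probes, adjusted p = 0.0365) and A_25_P00015142 by -1.62 ± 0.41 (adjusted p = 0.0288), both falling. Of the 592 probes 12.5% passed here and 19.8% at 6 Gy. Of miR-1290, A_25_P00015107 fell by 2.80 ± 0.58 on the log2 scale (limma adjusted p = 0.0194), while A_25_P00015106 had -0.40 ± 0.21 and did not pass (limma adjusted p = 0.191). The fall of miR-1290 at 2 Gy was thus carried by 1 of its probes, and the other stood near its floor.

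The same held at 6 Gy against 0 Gy. For miR-1246 the changes were -2.64 on A_25_P00015143 (limma adjusted p = 0.0378) and -1.31 on A_25_P00015142 (limma adjusted p = 0.0443). For miR-1290 they were -2.24 on A_25_P00015107 (limma adjusted p = 0.0317) and -0.14 on A_25_P00015106 (limma adjusted p = 0.577). At 10 Gy, where 3.55% of the probes passed, none of the 4 did: -0.91 and -0.78 for miR-1246 (limma adjusted p = 0.502 and 0.277), and -1.01 and -0.22 for miR-1290 (0.318 and 0.557).

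Such gaps between probes were uncommon on the array. Over the 235 miRNAs with at least 2 passing probes, the median difference between probes in their change at 2 Gy was 0.07, and 90% lay under 0.344. A_25_P00015106 lay on or near the floor, which raised 1 array at 2 Gy (scaled signal 0.0348, floor 0.0412) and 1 at 6 Gy (0.0410). How large the gap of miR-1290 would be without the floor was not computed. The gap was 2.40 for miR-1290, the largest of the 235, and 1.13 for miR-1246, with 3 larger. At 6 Gy the gaps were 2.10, the largest, and 1.33, with 2 larger, against a median of 0.067. The difference between the pair of probes within each array was compared between doses with exact two-sided permutation tests, a comparison chosen after the values were seen. At 2 Gy against 0 Gy it changed by -2.40 for miR-1290 (exact permutation p = 0.0286, the smallest 4 against 4 arrays can give; adjusted over 6 tests 0.114) and by -1.13 for miR-1246 (exact permutation p = 0.0571, adjusted 0.114). None of the 6 tests passed after adjustment.

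**Figure D4:**
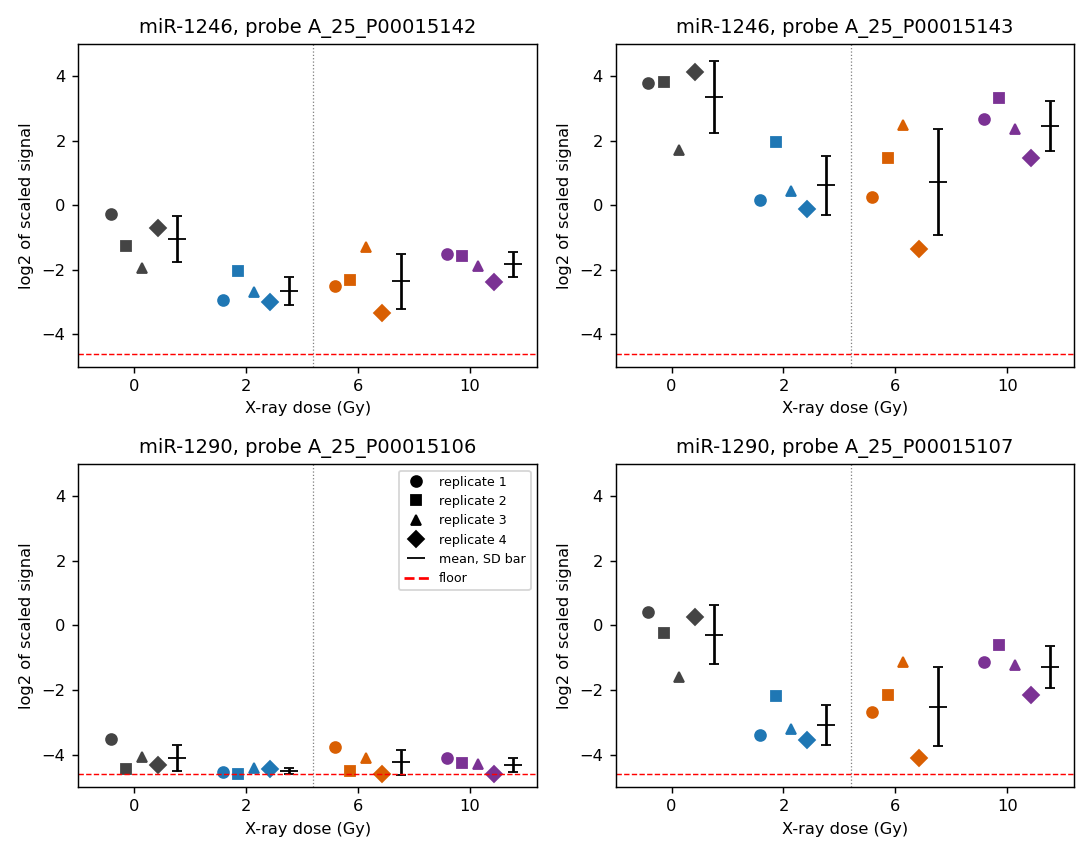
Log2 level of each of the 4 probes (one panel each, y axis) on every array by dose in Gy (x axis), with the floor at -4.60 as a red dashed line and the slides divided by a dotted line. A_25_P00015106 of miR-1290 lies on or close to the floor at every dose, while the other 3 probes lie above it on every array.

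The 2 miRNAs moved together from array to array. Over the 16 arrays their levels correlated at Pearson r = 0.96, and at 0.94 once each dose's mean was removed. Both values come from the same RNA and array, and are given as a description. Whether the probes of 1 miRNA also bind the other was not tested, so these may not be separate readings. The miRNAs whose levels were most like those of miR-1246 were miR-1290 (0.96), miR-100-5p (0.95) and miR-21-5p (0.92), against a median of -0.31 over the 282 others. For miR-1290 they were miR-1246 (0.96), miR-494-3p (0.90) and miR-100-5p (0.89), against a median of -0.21. miR-21-5p is a growth-promoting miRNA abundant in many tumours.

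The labelling spike moved with both miRNAs. On the log2 scale the 0 Gy arrays had a spike of 6.56 ± 3.84, the 2 Gy arrays 4.32 ± 1.92, the 6 Gy arrays 3.19 ± 2.27 and the 10 Gy arrays 6.55 ± 1.27 (SD, n = 4 each). The doses with the lower miRNA levels thus also had the lower mean spike. The lowest 0 Gy array for both miRNAs, replicate 3, had a spike of 0.92, and the lowest 6 Gy array, replicate 4, had one of 0. For miR-1246 the correlation over 16 arrays was r = 0.84 (permutation p = 8e-05, adjusted over 12 relations 0.00096) and Spearman's rank correlation was 0.84 (permutation p = 0.00016, adjusted 0.00096). With the 2 arrays of the most extreme spike left out, r was 0.89. For miR-1290 r was 0.77 (permutation p = 0.00046, adjusted 0.00184), Spearman's rank correlation was 0.75 (permutation p = 0.0016, adjusted 0.00384), and r was 0.85 without those arrays. Within slides miR-1246 had r = 0.77 on slide 1 and 0.94 on slide 2 (exact permutation p = 0.0289 and 0.00159, adjusted 0.0385 and 0.00384; 8 arrays each). For miR-1290 r was 0.70 on slide 1 (exact permutation p = 0.0599, adjusted 0.0653) and 0.91 on slide 2 (exact permutation p = 0.0068, adjusted 0.0136). Spearman's rank correlation on slides 1 and 2 was 0.83 and 0.79 for miR-1246 (exact permutation p = 0.0154 and 0.0279, adjusted 0.0264 and 0.0385). For miR-1290 it was 0.74 and 0.69 (exact permutation p = 0.0458 and 0.0694, adjusted 0.055 and 0.0694). Within slides the relation thus passed by both measures for miR-1246, and for miR-1290 only on slide 2 by Pearson's r. With each dose's mean removed, r over the 16 arrays was 0.86 for miR-1246 and 0.83 for miR-1290. Spearman's rank correlation was then 0.90 and 0.82, and no test was made of these values. The permutations above exchanged arrays between doses, so their p-values do not separate the spike from dose. How many of the 283 tested miRNAs follow the spike was not counted, so the relation is not shown to be particular to these miRNAs.

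With the spike as a covariate in the fit, the 2 Gy changes were smaller and passed, at -1.50 for miR-1246 (limma adjusted p = 0.0128) and -1.22 for miR-1290 (limma adjusted p = 0.00872). The 6 Gy changes became -0.95 and -0.62 and no longer passed (limma adjusted p = 0.176 each). At 10 Gy they were -0.84 and -0.61 (limma adjusted p = 0.0755 and 0.0523). The differences of 10 against 6 Gy shrank to 0.12 for miR-1246 and 0.01 for miR-1290. The fit assumes that 1 slope holds for all doses. What the spike's part is in the differences between doses was not tested beyond this fit.

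**Figure D5:**
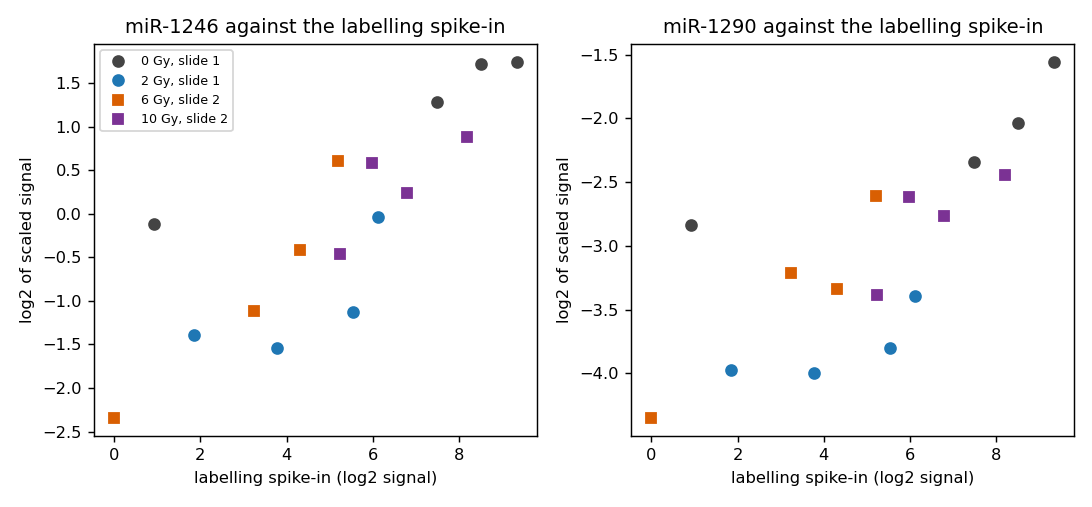
Log2 level of miR-1246 and miR-1290 (y axes) against the log2 signal of the labelling spike (x axis) on 16 arrays, coloured by dose, with circles for slide 1 and squares for slide 2. Arrays with a higher spike tended to have higher levels on both slides, with r of 0.77 and 0.94 for miR-1246 on slides 1 and 2.

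Other RNA fragments catalogued as miRNAs were set beside miR-1246. The list held 15 names whose sequences have been described as parts of transfer, small nuclear or other non-coding RNAs; 11 matched the array and 8 were tested. This list and those below were chosen with earlier results of these data known, so their counts are given as a description. At 2 Gy against 0 Gy, 5 of the 8 fell, miR-1246 among them, and 0 rose, against 6.71% of all miRNAs lower. Besides miR-1246, those that fell were miR-1260b (log2 change -1.49), the array's miR-1274a entry (-1.53), miR-4284 (-1.16) and miR-4286 (-1.52). For the miR-1274a entry, 1 of 4 arrays gave a detected signal at 2 Gy and likewise at 6 Gy, with 3 at the floor in each, against 4 of 4 detected and 1 at the floor for 0 Gy, so its change is set partly by the floor. The entries for miR-1274b (-0.72), miR-1280 (-0.20) and miR-720 (-0.46) did not pass. The median change of the 8 was -1.33, or -1.16 without miR-1246, against 0.03 over all 283. At 6 Gy 5 of 8 fell, where 13.4% of all miRNAs were lower, with a median of -1.19 against 0.12 over all. At 10 Gy 0 of 8 passed, where 0 of all 283 were lower, with a median of -0.92 against -0.02.

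Of 7 miRNAs described in serum vesicles of colon cancer, miR-1246 among them, 4 were tested. At 2 and at 6 Gy, 2 of these fell, miR-1246 itself and miR-21-5p, where 6.71% and 13.4% of all miRNAs were lower. The log2 change of miR-21-5p was -2.79 at 2 Gy and -2.72 at 6 Gy. It was detected on 1 of 4 arrays at 2 Gy and 2 of 4 at 6 Gy, with the others at the floor, against 4 of 4 at 0 Gy, so these values depend on the floor. miR-23a-3p (-1.60 at 2 Gy) and miR-1229-3p (-0.23) did not pass. miR-150-5p and miR-223-3p, known from blood cells, were detected on 0 arrays, and let-7a-5p on 7. At 6 and 10 Gy miR-23a-3p had -1.52 and -0.61 and miR-1229-3p had 0.17 and 0.24, and none of these passed. The medians were -1.89 at 2 Gy, -1.75 at 6 Gy and -0.73 at 10 Gy, and 0 of 4 passed at 10 Gy. Without miR-1246 they were -1.60, -1.52 and -0.61, against 0.03, 0.12 and -0.02 over all miRNAs.

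Of 13 miRNAs described as p53 targets or as processed with its help, 3 were tested. miR-1246 was the only one that passed at 2 and 6 Gy, and at 10 Gy 0 of the 3 did. None of the 3 was called higher, where 6.01% of all miRNAs were higher at 2 and at 6 Gy and 0.353% at 10 Gy, so a count of 0 in 3 is close to the background. miR-34a-5p, a p53-induced miRNA, had a log2 change of -1.76 at 2 Gy and -1.96 at 6 Gy, and miR-145-5p had -0.77 at 2 Gy. Neither passed. miR-34a-5p was detected on 4 of 4 arrays at 0 Gy, 3 of 4 at 2 Gy and 1 of 4 at 6 Gy. It stood at the floor on 1 array at 2 Gy and 2 at 6 Gy, so its changes are set partly by the floor. The other members of this list, miR-34b-5p and miR-34c-5p among them, were not tested because too few arrays detected them.

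The labelled cell type was checked against its markers. Of 8 colorectal epithelial miRNAs, 5 were detected on at least 1 array. miR-200c-3p and miR-141-3p were detected on 15 arrays each and were the 2 tested, while miR-192-5p, miR-194-5p and miR-215-5p were detected on 0. The summed scaled signal of those 2 was 0.296 to 2.37 for 0 Gy, 0.299 to 1.65 for 2 Gy, 0.0824 to 0.710 for 6 Gy and 0.444 to 1.15 for 10 Gy. At 6 Gy miR-200c-3p stood at the floor on 2 arrays and miR-141-3p on 1, so the lowest 6 Gy sum is set by the floor. Of 11 blood cell and serum markers, 4 were detected on any array and 2 tested, and the red cell marker miR-451a was on 0. The 2 tested, miR-486-5p and miR-155-5p, summed to 0.186 to 0.213 for 0 Gy, 0.216 to 0.238 for 2 Gy, 0.236 to 0.257 for 6 Gy and 0.240 to 0.248 for 10 Gy. miR-155-5p was higher at 6 Gy than at 0 Gy, by 0.31 on the log2 scale (limma adjusted p = 0.0407). Of 4 muscle markers, 3 were tested, with sums of 0.201 to 0.226 for 0 Gy, 0.164 to 0.233 for 2 Gy, 0.173 to 0.241 for 6 Gy and 0.159 to 0.206 for 10 Gy. Of these, miR-206 at 6 Gy and miR-133b at 10 Gy stood at the floor on 1 array each. The sums hold different miRNAs, so they can be compared between doses but not between lists. The part of these markers in the results was not tested.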

How the data were processed

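Each deposited file holds 1 single-colour Agilent array read with Feature Extraction 11.5.1.1, and its processed signal is an intensity with the background subtracted, per the file headers; arrays were not scaled to each other. Per the labels' protocols, ISOGEN was used to extract small RNA and Cy3 to label 100 ng. Each array had 56044 spots, with 2164 control spots, 0 saturated spots and 3.27 to 4.90% flagged as outliers. Control and outlier spots were left out and the rest averaged per probe. Detection of a probe required that more than 0.5 of its spots carry the scanner's flag for signal well above background. Signals were divided by the 75th percentile over the 518 probes detected on all arrays, floored at 0.0412 (log2 -4.60; 4.20% of values lay there) and logged. A miRNA was tested if a probe was detected on all 4 arrays of a dose, with its passing probes averaged. This left 592 of 3101 human probes.

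Dose differences were estimated in R 4.3.3 with limma 3.58.1 (file input by data.table, release 1.17.8), on all 16 arrays with a mean per dose, and adjusted by Benjamini-Hochberg over 283 miRNAs at a threshold of 0.05. The fit was run on simulated data with independent noise for each miRNA. The simulation held no correlation between miRNAs and no effect of slide or spike, so it does not test the fit under these. Permutation tests used Python 3.11.15 and scipy 1.17.1, 100000 resamples where 16 arrays were used and each of 40320 orders where 8 were, and figures matplotlib 3.10.9. The spike is the mean log2 signal of its probes, floored at 1 before the log. Both miRNAs were named in every comparison, the 3 most alike to each by Pearson r, and every tested member of the lists. The members and lists were chosen with earlier results of these data known. A motif count in mature sequences was planned and not made, because the human sequences were not used here. The number of arrays limits the precision.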

Additional observations from a re-analysis of the deposited data

Results flagged for a closer look

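One group of 24 checked held an array far from the others. On probe A_25_P00015143 of miR-1246, the lowest 0 Gy array, replicate 3, had a log2 level of 1.71 and its nearest neighbour 3.78. The gap was 0.853 of the group's range, above Dixon's critical value for 4 arrays. Chance marks about 1 in 20 such groups. The same array had a labelling spike of 0.92, the lowest of the 0 Gy arrays. Without it, the 2 Gy change of miR-1246 was -2.61 (limma adjusted p = 0.00459) and that of miR-1290 -1.81 (limma adjusted p = 0.00272). The part of the spike was not tested.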

How the results depend on the processing

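Every setting kept the falls of both miRNAs at 2 and 6 Gy in direction. Several could not move the changes by design and bear on the p-values alone. These were the replicate block, slide row, slide 1 alone, no detection filter and leaving out an array of a dose not compared. All p-values here are limma's adjusted p. With no scaling between arrays neither passed: at 2 Gy miR-1246 had -2.07 (0.0814) and miR-1290 -1.50 (0.0642), and at 6 Gy they had -1.73 (0.124) and -0.94 (0.135). With no detection filter the changes were unchanged and the p-values were 0.126 and 0.0956 at 2 Gy and 0.132 for both at 6 Gy. That fit adjusts over 1205 miRNAs, most of which did not pass the detection filter. Limma's unadjusted p at 2 Gy was 0.00355 and 0.00065 there, against 0.00203 and 0.00033 in the main fit. Slide 1 alone gave -2.18 (0.0775) and -1.60 (0.0505) at 2 Gy. The spike covariate gave -0.95 and -0.62 at 6 Gy (0.176 each). A_25_P00015106 alone gave -0.40 (0.191) at 2 Gy and -0.14 (0.577) at 6 Gy for miR-1290; this probe lies near the floor. The cause of these differences was not tested. Normexp gave -1.83 and -0.99 at 2 Gy (0.0428 each) and -1.71 and -0.83 at 6 Gy (0.0388 each) for miR-1246 and miR-1290, and Agilent's total gene signal gave -2.57 (0.0398) and -2.34 (0.0113), and -2.39 (0.0365) and -1.77 (0.0319). Leaving out each array in turn, the change of miR-1246 was -2.61 to -1.98 at 2 Gy, -2.45 to -1.47 at 6 Gy, -1.27 to -0.59 at 10 Gy, -0.27 to 0.71 for 6 against 2 Gy and 0.62 to 1.61 for 10 against 6 Gy; that of miR-1290 was -1.81 to -1.39, -1.44 to -0.86, -0.83 to -0.40, 0.16 to 0.74 and 0.25 to 0.83.

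The F test of miR-1246 passed with scaling over all human probes (0.0398), quantile normalization (0.0491) and without 0 Gy replicate 3 and 2 Gy replicate 2 together (0.00527). That of miR-1290 passed with scaling over all probes (0.0342), quantile normalization (0.0416), Agilent's total gene signal (0.0462), the replicate block (0.0488), the slide row (0.0371), the spike covariate (0.0213), those 2 arrays left out (0.00559) and the brightest probe (0.0466). Leaving out 1 array gave 0.0133 to 0.209 and 0.0107 to 0.139.

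The count of miRNAs called at 2 Gy was 36; it was 19 with normexp, 0 with no scaling (36 unadjusted), 125 with all-probe scaling, 71 with quantile normalization, 0 with no filter (136 unadjusted), 68 with the replicate block, 0 on slide 1 alone (69 unadjusted), 152 without the 2 arrays and 0 to 121 without 1 array. At 6 Gy it was 55, and 34, 0 (62 unadjusted), 183, 128, 86 (total gene signal), 0 (166 unadjusted), 3 (spike covariate), 166 and 0 to 143. At 10 Gy it was 1, and 0 with normexp (37 unadjusted), no scaling (22) and all-probe scaling (67), 25 with quantile normalization, 3 with no filter, 7 with the replicate block, 11 with the row, 47 with the spike, 70 without the 2 arrays, 9 with the brightest probe and 0 to 43 without 1 array. For 6 against 2 Gy the spike gave 1, and for 10 against 6 Gy the spike and no filter gave 1 each, where the count was 0. The F test called 0, and 103, 48, 10 (total gene signal), 1 (no filter), 21 (replicate block), 18 (row), 20 (spike), 163, 14 (brightest probe) and 0 to 122. Higher and lower calls split 17 and 19 at 2 Gy, 107 and 18 with all-probe scaling, 55 and 16 with quantile normalization, 19 and 10 with total gene signal and 7 and 12 with normexp. At 6 Gy they split 17 and 38, against 155 and 28, 93 and 35, and 46 and 40; at 10 Gy 1 and 0, against 23 and 2 with quantile normalization. All-probe scaling moved the median of all miRNAs to 0.40, 0.52 and 0.17 at 2, 6 and 10 Gy, quantile normalization to 0.24, 0.24 and 0.09, and no scaling to 0.13, 0.37 and -0.23. Both members lay below these medians at 2 and 6 Gy.

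Replicate numbers did not pair the arrays throughout. The mean correlation of same-numbered arrays was 0.007, -0.194 and 0.024 for numbers 1, 3 and 4. Arrays numbered 2 did go together, with a mean of 0.759 (0.589 to 0.87). Of all 16 arrays, 5 correlated best with their own number. With the replicate block, miR-1246 had -2.18 (0.0300) and miR-1290 -1.60 (0.0166) at 2 Gy, and -1.97 (0.0288) and -1.19 (0.0245) at 6 Gy. The slide as a random block could not be fitted. Probes alone and the brightest probe were added after seeing the data.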
